A study of Mus musculus with 6 samples.

Results

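The genes described are those of B cells, of plasma cells and of the vessels and stroma that lymphocytes use to enter and settle in tissue. A fixed set of 29 gene symbols was looked up in a table of RNA sequencing counts, of which 28 were found among 24054 gene rows; Fdcsp matched no row and was not analysed here. The data are from mouse salivary gland, with 3 control and 3 K5-RANKL libraries, each made from the glands of 5 pooled mice. K5-RANKL mice carry K5-rtTA, a doxycycline-dependent activator under the keratin 5 promoter of basal epithelial cells, and TetO-RANKL, the transgene it switches on; the controls were monogenic, and which transgene they carried is not given in the sources used here. Doxycycline was supplied to both groups through diet and drinking water for 2 weeks, starting when the mice were 9 weeks old. Which salivary glands were pooled, the strain and the sex are not stated in those sources, and RANKL made from this promoter comes from keratin 5 expressing cells rather than from its usual sources. The question is how these genes differ in level once RANKL is made in the gland.

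B cells carry an antigen receptor whose signal passes through the CD79A and CD79B chains to Src-family, SYK and BTK kinases and the adaptor BLNK. The lineage is set by EBF1 and PAX5, and when a B cell becomes a plasma cell BLIMP-1, encoded by Prdm1, shuts that programme down in favour of antibody secretion. Salivary glands hold plasma cells that make IgA, which is carried into saliva. Lymphocytes enter lymphoid tissue through high endothelial venules, whose sulfated sugars on proteins such as GLYCAM1 and MADCAM1 bind L-selectin, and then hold to ICAM1 and VCAM1 through integrins. RANKL is itself needed for lymph node formation.

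Total counts lay between 13875951 and 17921815 per library, so that 3 counts, taken as the limit of detection, equal 0.124 to 0.294 CPM. Levels are in CPM, the usual per-library scaled count, here on library sizes adjusted by the trimmed mean of M values (TMM). The scale matters for these genes. A few salivary secretory transcripts, abundant in the control libraries, fell in K5-RANKL glands, and over all genes tested the median log2 fold change was 0.01 on the TMM scale but 1.01 when counts were divided by library totals alone. Changes are therefore given relative to the TMM scale, and those that turn on it are named. In whole tissue, fewer cells of a type and less RNA per cell cannot be told apart.

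On that scale the antigen receptor chains and the lineage factors Pax5 and Ebf1 did not pass the test, while the measured genes of venules and stroma all rose, Icam1 the most at 11.4-fold. All 28 genes passed the filter on low counts. Of them 17 were higher and 1 was lower in K5-RANKL glands, and 10 did not pass (edgeR, Benjamini-Hochberg adjusted p under 0.05 over all genes). Among all 14044 genes tested 66.2% were called, 34.2% higher and 32.1% lower. The counts of each list below are to be read against these shares. The 28 genes had a median log2 fold change of 0.38, against 0.01 for all genes tested. It was 0.21 for B cell surface genes, 0.28 for signalling genes, 0.20 for transcription factors, 0.60 for plasma cell genes and 2.59 for venule and stroma genes. The CPM of K5-RANKL libraries lay above all controls for 16 of the 28 genes and below for 0, where 70.4% of all genes tested did not overlap, 36.3% lying above and 34.1% below. By library totals alone all 28 genes were called higher, as were 83.5% of all genes tested.

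**Figure D1:**
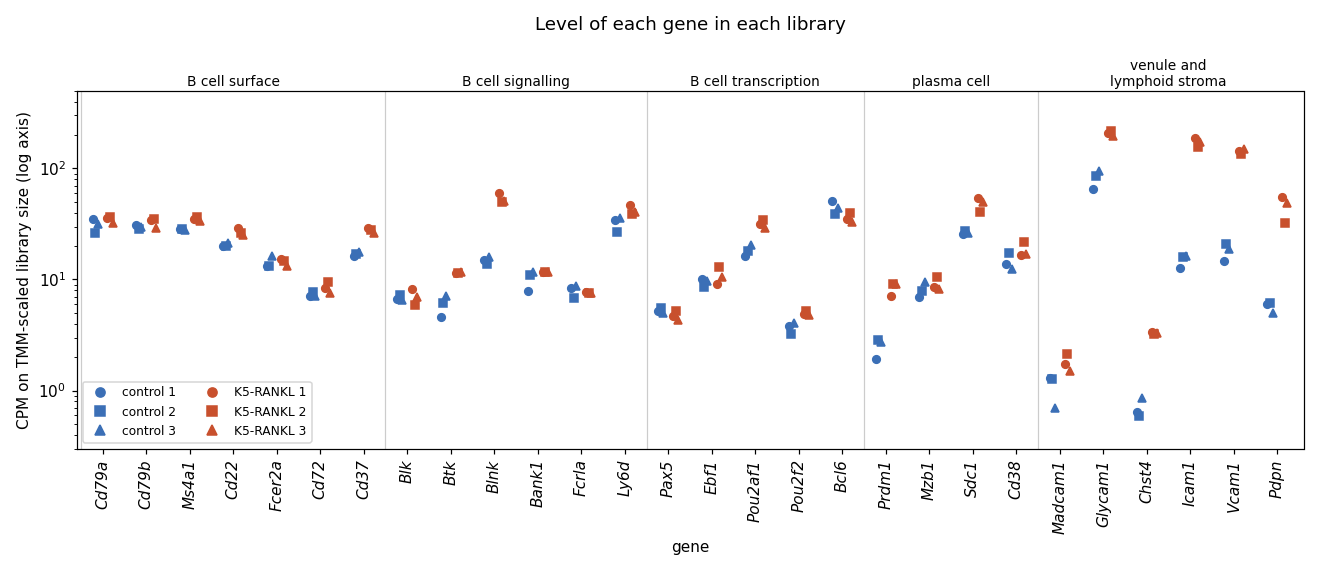
Level of 28 genes in CPM (log axis, TMM scale), grouped by role, in each of 3 control (blue) and 3 K5-RANKL (red) libraries; each point is a library of 5 pooled mice. Cd79a and Cd79b overlap between groups, and all K5-RANKL libraries lie at 154 CPM or more for Icam1, whose highest control is at 16.3.

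Of the 28 genes, 22 had an entry among RefSeq promoters of GRCm38.p6, and the 250 bases before the start site were searched on both strands for matches to regulators of this lineage. Cd79b, Ms4a1, Blk, Ly6d, Vcam1 and Mzb1 had no entry and were not searched, so the matches below are among the 22. The sequences below are shown because each is the one gene here that matched its motif: NF-kB, the factor that RANKL signalling activates, for Madcam1; the octamer ATGCAAAT bound by POU2F1 and POU2F2 for Blnk; and the EBF motif for Cd22. Capitals mark the matches, and each sequence runs 5′ to 3′ on the strand of its gene.
Madcam1: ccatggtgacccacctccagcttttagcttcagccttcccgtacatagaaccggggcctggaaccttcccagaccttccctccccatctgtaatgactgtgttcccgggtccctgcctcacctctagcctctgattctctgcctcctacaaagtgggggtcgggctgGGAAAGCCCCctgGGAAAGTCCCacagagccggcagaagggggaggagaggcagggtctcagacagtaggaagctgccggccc
Blnk: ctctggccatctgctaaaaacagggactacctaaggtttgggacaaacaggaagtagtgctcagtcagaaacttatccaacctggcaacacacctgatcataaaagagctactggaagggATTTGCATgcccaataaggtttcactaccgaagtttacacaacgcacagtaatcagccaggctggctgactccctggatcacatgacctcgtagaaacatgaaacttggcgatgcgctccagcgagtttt
Cd22: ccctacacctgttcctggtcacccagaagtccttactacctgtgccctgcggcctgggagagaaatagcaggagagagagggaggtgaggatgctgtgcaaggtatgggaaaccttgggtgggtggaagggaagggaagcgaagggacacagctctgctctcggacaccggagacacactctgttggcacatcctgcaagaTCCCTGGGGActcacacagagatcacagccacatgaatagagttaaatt
The windows are chr10:79664309-79664558 on the plus strand for Madcam1, chr19:40994222-40994471 on the minus strand for Blnk and chr7:30879029-30879278 on the minus strand for Cd22, where the annotated start of the transcript lies inside the span of the gene. Madcam1 held 2 NF-kB matches, which start 83 and 70 bases before the start site. Among all 32851 windows of this length, 3.9% held an NF-kB match, 1.6% the octamer and 0.779% the EBF motif. The Ets core GAGGAA, the other motif searched, was in 9 of the 22 genes. Some genes had several windows, and by window it was in 9 of their 26 and in 23.3% of all windows. A match is a stretch of letters, and binding was not measured.

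Neither antigen receptor chain passed the test on the TMM scale with all libraries. Cd79a (chromosome 7 from 24897497 to 24901858) stood at 35.0, 26.5 and 31.7 CPM in controls and at 35.5, 36.8 and 32.2 in K5-RANKL libraries. Its partner Cd79b (chromosome 11 from 106311341 to 106314562) stood at 30.9, 28.2 and 29.4 CPM in controls and at 34.2, 35.2 and 29.3 in K5-RANKL libraries. For both genes the groups overlapped, with log2 fold changes of 0.16 (SE 0.10, edgeR adjusted p = 0.149) and 0.16 (SE 0.09, edgeR adjusted p = 0.134). By library totals the values were 1.16 and 1.15, near the median of all genes on that scale. Without control 1 the value of Cd79a was 0.25 and passed; across the settings tried its adjusted p lay between 2.21e-10 and 0.585. With totals that leave out the 20 most abundant genes, Cd79b passed at 0.22 (edgeR adjusted p = 0.0397); across the settings tried its adjusted p lay between 1.8e-10 and 0.381.

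Of the 7 surface genes, 3 rose, 0 fell and 4 did not pass, where 34.2% of all genes tested were higher and 32.1% lower. Ms4a1, encoding CD20, stood at 28.5, 28.4 and 27.8 CPM in controls and at 34.8, 36.4 and 33.6 in K5-RANKL libraries. It rose by 0.31 (SE 0.08, 1.24-fold, edgeR adjusted p = 0.00238), with every K5-RANKL library above every control. Cd22, an inhibitory lectin of the receptor whose promoter is shown above, went from 20.1, 19.9 and 21.2 CPM to 28.99, 26.3 and 25, a rise of 0.39 (SE 0.09, edgeR adjusted p = 0.000953); 9.48% of its exon bases overlap Gm29439 on the other strand. Cd37, a tetraspanin of B cells that other leukocytes also express, rose most of the 7, from 16.1, 17.1 and 17.7 CPM to 29.1, 28.2 and 26.3 (0.71, SE 0.09, edgeR adjusted p = 1.75e-06). The groups were apart for these 3 genes and overlapped for the other 4. Fcer2a, the low-affinity IgE receptor CD23 of mature follicular B cells, stood at 13.3 to 16.1 CPM in controls and 13.3 to 15.3 in K5-RANKL libraries, a difference of 0.01 (SE 0.11). Cd72, an inhibitory coreceptor, stood at 0.21 (SE 0.14, edgeR adjusted p = 0.172); 51.4% of its annotated exon bases also lie in exons of Tesk1 on the other strand, and the strand setting of the counting is not given, so its counts are uncertain.

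Signalling genes split, with 3 rising and 3 not passing of 6, where 34.2% of all genes tested were higher. Blnk, the adaptor that joins the receptor kinases to phospholipase C gamma, stood at 15.01, 13.7 and 15.9 CPM in controls and at 59.6, 50.2 and 50.8 in K5-RANKL libraries. It rose 3.59-fold (log2 1.84, SE 0.10, edgeR adjusted p = 3.36e-11), and the groups were far apart. Btk, the Tec-family kinase whose loss leaves mice and people short of B cells, went from 4.61, 6.08 and 7.04 CPM to 11.5, 11.6 and 11.7, a rise of 0.96 (SE 0.14, edgeR adjusted p = 1.21e-05). Both Blnk and Btk are also used by macrophages and other myeloid cells. Ly6d, a surface marker of early B lineage commitment that squamous epithelium also makes, went from 34.1, 26.9 and 35.7 CPM to 46.7, 38.8 and 40.2 (0.38, SE 0.10, edgeR adjusted p = 0.00493).

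The other signalling genes overlapped between groups. Blk, a Src-family kinase of B cells, stood at 6.63, 7.26 and 6.57 CPM in controls and at 8.29, 5.93 and 6.98 in K5-RANKL libraries (0.06, SE 0.15). Bank1, a scaffold of receptor signalling, had its lowest value in control 1, at 7.92 CPM, and otherwise 11.0 to 11.7 CPM in every library (0.19, SE 0.13). Fcrla, an intracellular Fc receptor-like protein, stood at 8.38, 6.87 and 8.76 CPM in controls and at 7.54 to 7.76 in K5-RANKL libraries, a difference of -0.08 (SE 0.13, edgeR adjusted p = 0.624).

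Among the 5 transcription genes, the lineage factors did not pass and a coactivator rose. Pax5, which fixes B cell identity, stood at 5.16, 5.59 and 5.00 CPM in controls and at 4.73, 5.24 and 4.33 in K5-RANKL libraries (-0.14, SE 0.16, edgeR adjusted p = 0.451). Ebf1, which acts with it and is also made by adipocyte and stromal precursors, stood at 8.54 to 10.1 CPM in controls and 9.17 to 13.0 in K5-RANKL libraries (0.20, SE 0.14). Both sets overlapped. Pou2af1, the octamer coactivator OCA-B that germinal centres require, went from 16.3, 18.1 and 20.2 CPM to 31.9, 34.2 and 28.9 (0.79, SE 0.10, edgeR adjusted p = 1.92e-06), and the groups were apart. Its partner Pou2f2, encoding OCT2, rose by 0.41 (SE 0.17, edgeR adjusted p = 0.038) from 3.24 to 4.07 CPM in controls to 4.80 to 5.19.

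The calls of Pou2f2 and Bcl6 were the least firm of these. Pou2f2 lost its call without control 1, control 2, K5-RANKL 1, K5-RANKL 2 or K5-RANKL 3, at 0.42, 0.33, 0.42, 0.38 and 0.44, and across the settings tried its adjusted p lay between 1.01e-07 and 0.134. Bcl6, a transcriptional repressor on which the germinal centre programme depends, was the 1 gene called lower. It stood at 51.1, 39.1 and 44.1 CPM in controls and at 34.8, 40.1 and 33.1 in K5-RANKL libraries, a log2 fold change of -0.32 (SE 0.10, edgeR adjusted p = 0.0105), and the groups overlapped. Without control 1 it stood at -0.22 and without K5-RANKL 3 at -0.26, both short of the threshold, and by library totals at 0.68; across the settings tried its adjusted p lay between 1.08e-06 and 0.0672. Bcl6 is widely expressed outside B cells.

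Of 4 plasma cell genes, 3 rose and 1 did not pass, where 34.2% of all genes tested were higher. Those that rose are also made by other cells, whose part in the rises was not tested. Prdm1, the plasma cell factor BLIMP-1, which also acts in T cells, macrophages and squamous epithelium, stood at 1.93, 2.85 and 2.74 CPM in controls and at 7.05, 9.04 and 9.03 in K5-RANKL libraries. It rose 3.32-fold (log2 1.73, SE 0.19, edgeR adjusted p = 2.9e-07) with the groups apart. Sdc1, encoding the plasma cell marker CD138, a proteoglycan that most epithelia carry, went from 25.9, 27.4 and 26.4 CPM to 53.7, 40.5 and 49.5 (0.85, SE 0.10, edgeR adjusted p = 9e-07). K5-RANKL 2 held the lowest Sdc1 of its group, as it did for the basal keratin gene Krt5, which stood at 398, 161 and 368 CPM there, against 37.2 to 39.2 in controls; the part of basal epithelium in the Sdc1 result was not tested. Mzb1, an endoplasmic reticulum protein of antibody-secreting and marginal zone B cells and the most restricted of the 4, stood at 7, 7.95 and 9.54 CPM in controls and at 8.54, 10.5 and 8.19 in K5-RANKL libraries (0.14, SE 0.14, edgeR adjusted p = 0.411). The groups overlapped, and 76.9% of its exon bases are shared with an annotated transcript of SPATA24 on the same strand. Cd38, an NAD-degrading surface enzyme, rose by 0.35 (SE 0.14, edgeR adjusted p = 0.0345) with overlapping groups, at 12.5 to 17.2 CPM in controls and 16.5 to 21.97 in K5-RANKL libraries. It did not pass without control 1, control 3 or K5-RANKL 2, at 0.32, 0.25 and 0.21, and across the settings tried its adjusted p lay between 1.12e-09 and 0.171.

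The companion list of plasma cell genes moved both ways, with 9 of 22 tested rising, 10 falling and 3 not passing (median log2 fold change -0.26). Igj, the J chain that links IgA and IgM into polymers and is made by plasma cells, fell from 227, 190 and 289 CPM to 78.8, 119 and 121. The log2 fold change was -1.15 (SE 0.24, edgeR adjusted p = 0.00956), every K5-RANKL library was below every control, and by library totals it stood at -0.16 and was not called; over the alternatives run for Igj its direction did not change. The secretory pathway gene Fkbp11, a prolyl isomerase, fell by 2.34 (SE 0.09, edgeR adjusted p = 1.1e-12), and Xbp1, the factor of the secretory programme, by 0.86 (SE 0.08) from 561 ± 3.998 to 309 ± 18.2 CPM (SD, n = 3 each). Both are high in acinar cells too, and all 7 acinar marker genes fell, their summed level going from between 102700 and 164800 CPM in controls to between 895.7 and 3434 CPM; the part of acinar cells in these falls was not tested. By library totals Xbp1 stood at 0.13. Cxcr4, the chemokine receptor that keeps plasma cells in their niche and is used by most leukocytes, rose by 1.87 (SE 0.12, edgeR adjusted p = 2.78e-10). Of 15 immunoglobulin gene symbols, 1 matched a row: Igll1, the surrogate light chain of B cell precursors, with 0, 0 and 0 counts in controls and 1, 1 and 0 in K5-RANKL libraries. The other immunoglobulin genes were not analysed here, so antibody class and amount were not read from these data.

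All 6 measured venule and stroma genes rose. Icam1 (chromosome 9 from 21015940 to 21028814), the ligand of the integrin LFA-1, stood at 12.7, 16.1 and 16.3 CPM in controls and at 187, 154 and 174 in K5-RANKL libraries, 11.4-fold higher (log2 3.51, SE 0.11, edgeR adjusted p = 5.85e-14). Vcam1 (chromosome 3 from 116110020 to 116129688), the ligand of alpha 4 integrins, went from 14.6, 21.1 and 18.8 CPM to 142, 135 and 150, 7.84-fold higher (log2 2.97, SE 0.11, edgeR adjusted p = 7.47e-13). These are known NF-kB target genes that endothelium, stroma, epithelium and macrophages can all express. For both the lowest K5-RANKL library was several times the highest control. Of Icam1's exon bases 20.2% overlap Gm47079 on the other strand.

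Pdpn, a mucin-type protein of reticular stroma and lymphatic vessels that basal epithelium also makes, went from 5.99, 6.18 and 5.00 CPM to 55.7, 32.1 and 48.9. It rose 8.04-fold (log2 3.01, SE 0.27, edgeR adjusted p = 8.26e-05). K5-RANKL 2 was again the lowest of its group, as in Krt5, Krt14 (270, 134 and 242 CPM) and Krt17 (257, 112 and 228 CPM). Of 4 lymphatic markers tested 3 rose and 1 did not pass, and without control 1 the counts were 2 higher and 1 lower. Lyve1, a hyaluronan receptor of lymphatic endothelium, rose by 1.25 (SE 0.15, edgeR adjusted p = 3.22e-06), from 4.88, 8.93 and 7.04 CPM to 15.8, 15.6 and 17.9. In control 1 all 4 lymphatic markers tested were below the mean of the other controls, with a median log2 difference of -0.725. All 4 were also below the mean of their group in K5-RANKL 1, where the median was -0.0919. Prox1, the lymphatic fate factor, rose by 1.22 (SE 0.39, edgeR adjusted p = 0.0111), from 0.184, 0.687 and 1.02 CPM to 1.20, 1.82 and 1.58. The controls held 2, 7 and 13 counts of Prox1. Reln, the marker that did not pass, stood at -0.34 (SE 0.19, edgeR adjusted p = 0.122). The part of either tissue in the Pdpn result was not tested.

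The 3 genes of the high endothelial venule rose as well. Glycam1, the sulfated L-selectin ligand of these venules and also a milk protein, stood at 65.7, 85.5 and 95.3 CPM in controls and at 208, 218 and 194 in K5-RANKL libraries, 2.51-fold higher (log2 1.33, SE 0.11, edgeR adjusted p = 3.39e-07). Chst4, the sulfotransferase that makes the L-selectin epitope, went from 0.645, 0.589 and 0.860 CPM to 3.40, 3.21 and 3.31, 4.64-fold higher (log2 2.21, SE 0.26, edgeR adjusted p = 1.02e-06); the controls held 7, 6 and 11 counts. Madcam1, the mucosal addressin whose promoter is shown above, stood at 1.29, 1.27 and 0.704 CPM in controls and at 1.74, 2.14 and 1.49 in K5-RANKL libraries. It rose by 0.73 (SE 0.30, edgeR adjusted p = 0.0392) on 9 to 14 counts per control library. The groups were apart for all 3 genes, narrowly so for Madcam1. The part of venules, gland epithelium or other cells in these rises was not tested. The call of Madcam1 was lost without control 3, K5-RANKL 1 or K5-RANKL 2, at 0.47, 0.75 and 0.60, and across the settings tried its adjusted p lay between 7.47e-06 and 0.217.

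**Figure D2:**
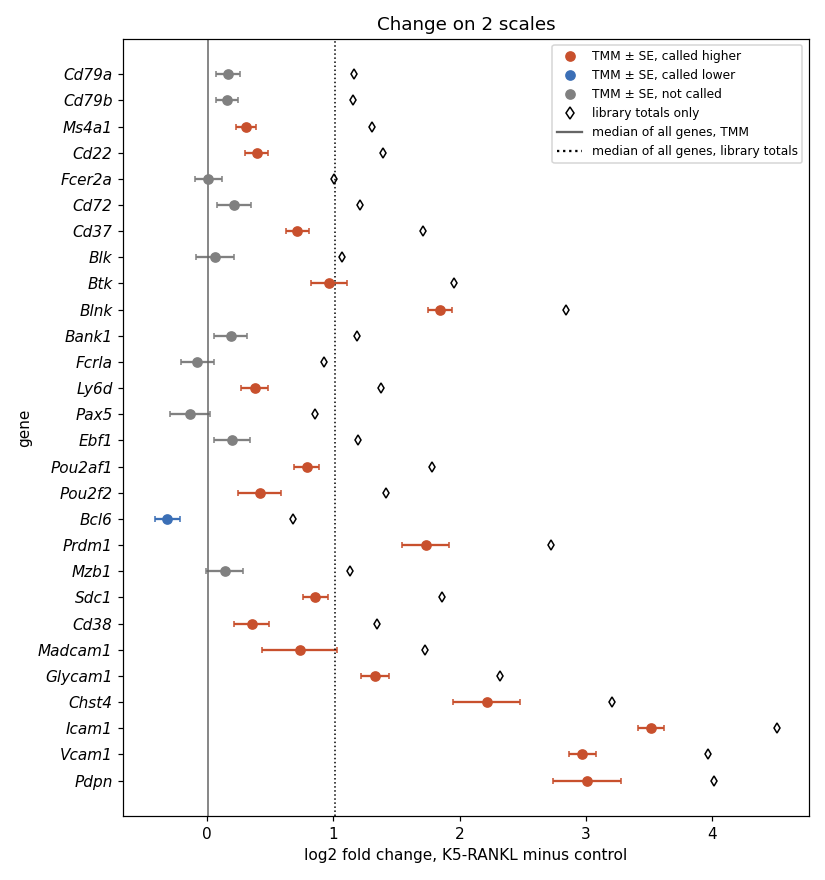
Log2 fold change (x axis, K5-RANKL minus control) of each of 28 genes on the TMM scale (filled points, bars are SE) and by library totals alone (open diamonds); lines mark the median of all genes tested on each scale, 0.01 and 1.01. Icam1, Vcam1 and Pdpn stand at 3.51, 2.97 and 3.01, and Pax5, Fcrla and Bcl6 lie below the median on both scales.

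Among 21 other tested genes of venules and adhesion, 15 rose, 4 fell and 2 did not pass (median log2 fold change 0.63). Gcnt1, an enzyme that builds the branched sugars of selectin ligands, rose from 17.8 ± 3.34 to 106 ± 4.98 CPM (log2 2.57, SE 0.11, edgeR adjusted p = 5.54e-12; SD, n = 3 each). Chst2 and Fut7, which complete the L-selectin epitope with Chst4, rose by 1.98 (SE 0.14) and 1.84 (SE 0.27). The integrin chain gene Itgb1 rose by 0.63 (SE 0.07). Podxl, a sialomucin of endothelium and epithelium, fell by 0.51 (SE 0.08), but by library totals its sign turned, to a rise of 0.49. Of 8 general endothelial markers 3 rose, 2 fell and 3 did not pass (median log2 fold change 0.25), shares near the 34.2% higher and 32.1% lower of all genes tested; without control 3 the count that fell was 1. Pecam1 rose by 0.37 (SE 0.08) and Eng by 0.70 (SE 0.09). Emcn fell by 0.53 (SE 0.14), but by library totals its sign turned, to a rise of 0.47. The summed level of the 8 markers was 156.9 to 183.6 CPM in controls and 199.7 to 205.8 in K5-RANKL libraries.

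Per kilobase of annotated exon, which allows genes to be compared in level, Glycam1 ranked first of the 28 in both groups, at 123 and 311 CPM per kilobase. Ly6d was next in controls at 43.3, then Cd79a at 21.3 and Cd79b at 20.6 CPM per kilobase. Icam1 moved from rank 12 in controls (5.93 CPM per kilobase) to rank 2 in K5-RANKL glands (67.9), Vcam1 from rank 17 (3.64) to rank 4 (28.5) and Pdpn from rank 18 (3.15) to rank 6 (25.1). The receptor chains went from ranks 3 and 4 to ranks 7 and 8, at 23.9 and 23.0 CPM per kilobase. Neighbours with like levels, such as Cd79a and Cd79b, did not differ beyond their spread over libraries, and the lengths are of GENCODE exons, which may not be those the counting used.

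A ratio of counts within a library does not depend on the scale. Each gene was therefore also set against 100 counts of Cd79a and Cd79b together, whose sum was 558 to 781 counts per control library and 1321 to 1682 per K5-RANKL library. Ms4a1 stood at 43.2, 51.8 and 45.5 in controls and at 49.9, 50.5 and 54.7 in K5-RANKL libraries, and its groups overlapped. Of the 26 genes other than Cd79a and Cd79b, K5-RANKL libraries lay above all controls for 14, below for 3 and overlapped for 9; over all genes tested 25.9% lay above and 38.0% below. An exact two-sided permutation test of 3 against 3 libraries cannot give less than p = 0.1, so no such ratio could pass. The 3 below were Pax5, with 7.82, 10.2 and 8.20 in controls and 6.78, 7.27 and 7.04 in K5-RANKL libraries, Fcrla and Bcl6. Blnk went from 24.7 ± 1.72 to 79.3 ± 8.39 counts per 100, Btk from 9.87 ± 2.51 to 17.2 ± 1.65, and Cd37 from 28.2 ± 3.43 to 41.2 ± 1.86 (SD, n = 3 each). Icam1 went from 25.1 ± 5.23 to 255 ± 36.2 and Vcam1 from 30.4 ± 8.24 to 211 ± 28.96 counts per 100. Igj stood at 345, 347 and 473 counts per 100 in controls and at 113, 165 and 196 in K5-RANKL libraries. Relative to the receptor chains of the same library, the J chain was thus lower, and Icam1 and Vcam1 higher, in each K5-RANKL library than in any control.

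**Figure D3:**
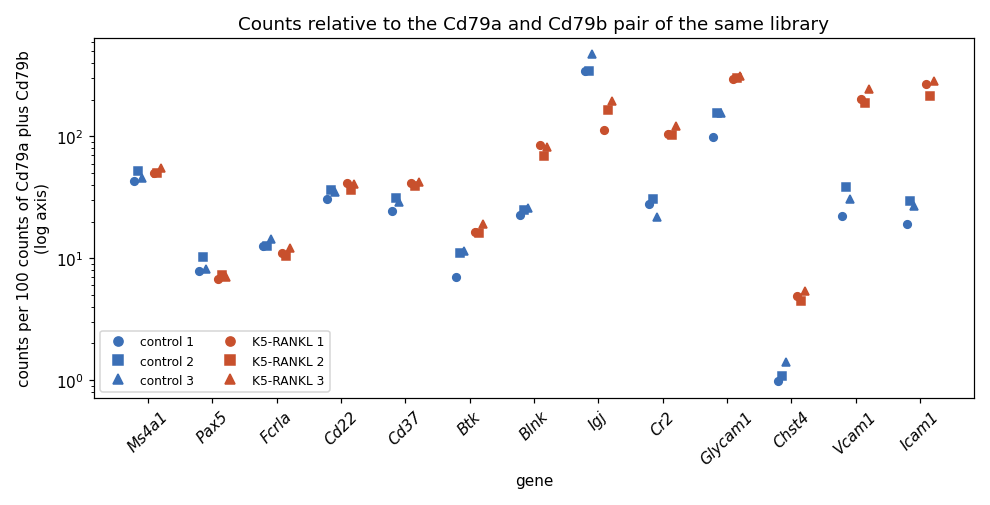
Counts of selected genes per 100 counts of Cd79a plus Cd79b in the same library (y axis, log scale), for 3 control (blue) and 3 K5-RANKL (red) libraries; each point is a library. Ms4a1 overlaps between groups, Igj lies at 345 to 473 in controls and at 113 to 196 in K5-RANKL libraries, and Icam1 lies at 19.3 to 29.4 and at 214 to 283.

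Other genes of B cells were taken from a list of 33 present in the table. Of these 26 rose, 3 fell and 4 did not pass (median log2 fold change 0.83). Many of the 26 are shared with myeloid cells or epithelium. Cr2, the complement receptor of mature B cells and follicular dendritic cells, rose from 18.4, 16.9 and 13.4 CPM to 73.1, 74.1 and 74.5 (log2 2.19, SE 0.10, edgeR adjusted p = 3.68e-12), and per 100 counts of the receptor chains from 26.9 ± 4.49 to 109.5 ± 10.01 (SD, n = 3 each). Fcgr2b, the inhibitory Fc receptor of B cells, macrophages and follicular dendritic cells, rose by 2.85 (SE 0.10). Spib, a factor of B cells and of microfold cells, rose by 5.02 (SE 0.10, edgeR adjusted p = 3.33e-16) from 19.7 ± 2.49 to 639 ± 29.9 CPM; all 7 microfold cell markers tested, Spib among them, rose. Cd24a, a surface protein of B cell precursors and epithelium, fell by 0.78 (SE 0.08). Its mean went from 751 ± 25.9 to 437 ± 17.03 CPM (SD, n = 3 each), but by library totals its sign turned, to a rise of 0.22.

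Of 14 germinal centre genes tested, 8 rose, 1 fell and 5 did not pass (median log2 fold change 0.64), where 34.2% of all genes tested were higher and 32.1% lower. Gcsam, a signalling adaptor of germinal centre B cells, rose by 1.42 (SE 0.26, edgeR adjusted p = 0.000103) from 1.42 ± 0.352 to 3.77 ± 0.834 CPM (SD, n = 3 each). Icosl, a costimulatory ligand that epithelium and stroma share, rose by 1.58 (SE 0.09). Lmo2, also an endothelial gene, fell by 0.83 (SE 0.09), but by library totals its sign turned, to a rise of 0.17.

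Of 21 tested lymphoid organisers and B cell survival genes, 15 rose, 4 fell and 2 did not pass (median log2 fold change 0.57). Cxcl13, the chemokine that draws B cells into follicles, stood at 19.3, 20.8 and 21.3 CPM in controls and at 23.6, 24.1 and 25.5 in K5-RANKL libraries. The rise was small (0.25, SE 0.09, edgeR adjusted p = 0.0171) and lost its call by DESeq2 and without control 1 (0.21) or K5-RANKL 3 (0.22). Ccl19, which draws T cells and dendritic cells, rose by 0.93 (SE 0.12), its receptor gene Ccr7 by 1.46 (SE 0.09) and the lymphotoxin gene Ltb by 1.09 (SE 0.10). Relb, the noncanonical NF-kB subunit downstream of RANK and the lymphotoxin receptor, rose from 10.1 ± 1.02 to 71.2 ± 4.96 CPM (log2 2.82, SE 0.10, edgeR adjusted p = 1.92e-13). The lymphotoxin receptor gene Ltbr fell by 0.25 (SE 0.08), did not pass without K5-RANKL 3 (-0.21) and stood at 0.75 by library totals. Id2, a transcriptional regulator that innate lymphoid cells need and many other cells make, fell by 0.74 (SE 0.09) and stood at 0.26 by library totals. Ccl21a had 0 counts in every library, which allows up to 0.124 to 0.294 CPM per library; its near-identical copies make its counting uncertain. Among 17 genes of follicular dendritic and reticular stroma 14 rose, 1 fell and 2 did not pass (median log2 fold change 1.40). Fcamr, an Fc receptor for IgA and IgM, rose from 2.49, 2.26 and 2.27 CPM to 138, 117 and 130 (log2 5.78, SE 0.12, edgeR adjusted p = 3.95e-16), and Clu, a secreted chaperone of stroma and epithelium, by 3.56 (SE 0.11). Ltbr is the gene of this list that fell, so that 0 fell without K5-RANKL 3.

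Markers of other leukocytes rose in most cases. Of 14 T cell genes 12 rose and 2 did not pass (median log2 fold change 1.10), and their summed level went from 117.5 to 123.8 CPM in controls to 233.3 to 252.1. Cd4 rose by 1.503 (SE 0.11) and Lck by 0.94 (SE 0.09). The 2 that did not pass were the CD8 chains, Cd8a at 0.21 (SE 0.12, edgeR adjusted p = 0.135) and Cd8b1 at -0.16 (SE 0.12, edgeR adjusted p = 0.237), with overlapping groups for both. All 11 macrophage and monocyte genes rose (median log2 fold change 2.21), and their summed level was 367.9 to 445.4 CPM in controls and 2401 to 2507 in K5-RANKL libraries. C1qa, a complement subunit of macrophages, rose by 2.77 (SE 0.08). All 8 dendritic cell genes rose as well (median log2 fold change 1.31), and Itgax rose by 2.55 (SE 0.10). Fibroblast markers rose in 6 of 7 cases (median log2 fold change 1.23); Dpt rose by 1.23 (SE 0.09). The part of these cells in the rises of Blnk, Btk, Cd37, Prdm1, Icam1 and Vcam1 was not tested. Per 100 counts of the receptor chains, the T cell gene Cd3e went from 12.2 ± 1.61 to 24.1 ± 0.891 and the macrophage gene Csf1r from 82.0 ± 16.5 to 335 ± 19.3 (SD, n = 3 each).

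**Figure D4:**
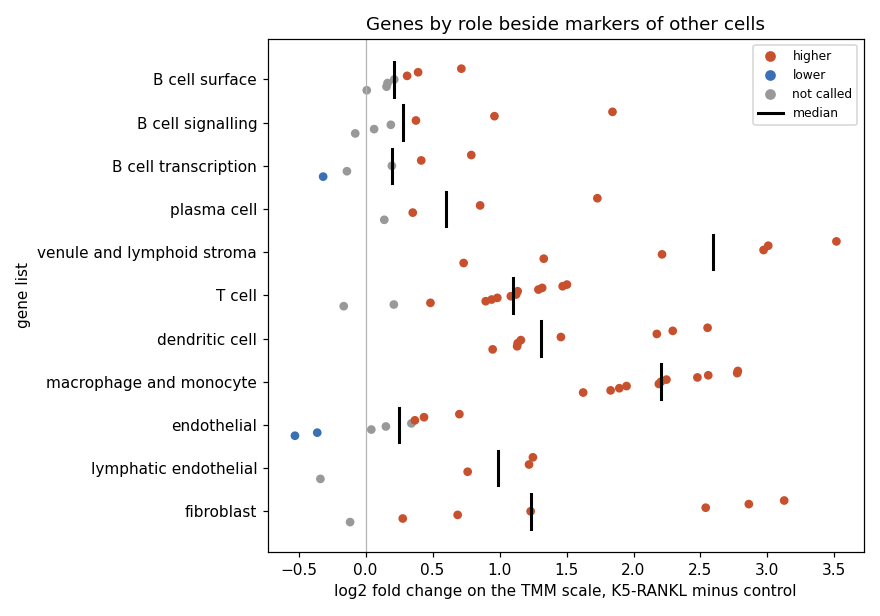
Log2 fold change on the TMM scale (x axis) of each tested gene in 5 role groups and in marker lists of other cells; points are genes, coloured by their call, and black bars are list medians. The B cell surface, signalling and transcription medians are 0.21, 0.28 and 0.20, the T cell median is 1.10, and that of macrophage and monocyte genes is 2.21.

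Over all genes control 1 stood apart from the other controls, with a chi-square per gene of 36.98 and 38.3 against them, where controls 2 and 3 gave 6.26. Relative to the mean log2 level of the other libraries of its group, the median over the 28 genes lay between -0.06 in control 1 and 0.09 in control 3, and between -0.10 in K5-RANKL 3 and 0.06 in K5-RANKL 2. In K5-RANKL 3 all 7 surface genes and all 5 transcription genes were below the mean of the other K5-RANKL libraries, with medians of -0.17 and -0.18. In K5-RANKL 2 all 5 transcription genes were above that mean and all 6 signalling genes below it, with medians of 0.21 and -0.08. In control 1 the venule and stroma genes had a median of -0.24, and 10 of 11 macrophage and monocyte genes were below the mean of the other controls there. Whether a lymph node or other lymphoid tissue was taken with some glands is not given in the sources used here; its part in the levels was not tested.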

How the data were processed

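The authors deposited raw read counts per gene, whole numbers with a different total in each library, from poly(A)-selected stranded libraries made from 250 ng of RNA. Reads were aligned with STAR to mm10, per the submitters' processing notes. For the STAR version, the counting tool, the annotation and the strand setting, a value is not given in the sources used here. Groups come from the genotype label, and replicate numbers follow deposition order and pair no libraries. Nothing says whether pools were collected on separate days, so p-values measure only the spread between these pools, which may be in part technical. Pairs of libraries within groups gave a chi-square of 6.26 to 38.3 per gene (pairs summing to 20 or more), so none was a copy of another.

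Genes were filtered with filterByExpr at a minimum count of 10 (14044 of 24054 rows kept), scaled by TMM and compared by the quasi-likelihood F-test of edgeR (robust, two-sided), with Benjamini-Hochberg adjustment over all genes and a threshold of 0.05. Dividing the log2 fold change by the root of F gave its SE. edgeR was version 4.0.16, DESeq2 version 1.42.0 and limma version 3.58.1, under R version 4.3.3. On counts simulated for K5-RANKL against control, 13797 genes were tested. Of these 82, 56 and 62 were changed 1.5-fold, 2-fold and 4-fold, up or down at random. The test called 69.5% of genes changed 1.5-fold, 96.4% changed 2-fold and 98.4% changed 4-fold, with 8 false calls among 180. All genes shared a common dispersion and no other group difference was simulated, so these shares do not bear on the choice of scale. Positions and promoters are RefSeq's on GRCm38.p6, the assembly of mm10, matched by Entrez identifier; exon lengths are GENCODE M21's. Alternatives were RLE factors, library totals, DESeq2, limma-voom, other filters and each library left out.

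The genes and all lists were chosen with earlier results of these data known. The named genes are all 28, and of each other list the called gene with the smallest p in each direction and the gene of highest CPM, with any immunoglobulin gene present; some of these are not reported here. Other genes named (Cr2, Igj, Fcgr2b, Gcsam, Chst2, Fut7, Cxcl13, Ccl19, Ccr7, Ltb, Prox1, Cd8a, Cd8b1, Cd3e, Csf1r, Krt14, Krt17 and Ccl21a) were chosen after their values were seen. The immunoglobulin and marker lists hold genes that several cell types share. Limits of detection and counting cover counting error only.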

Additional observations from a re-analysis of the deposited data

How the results depend on the processing

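No paired analysis was possible because the labels give no number shared between groups. With counts divided by library totals, 11733 genes were called higher and 698 lower, in place of 4799 and 4505, and of the 28 genes described 28 were higher and 0 lower, in place of 17 and 1. That scale, whose median over all genes is 1.01, turned Fcrla to 0.92, Pax5 to 0.86, Bcl6 to 0.68, Cd24a to 0.22, Lmo2 to 0.17, Xbp1 to 0.13, Id2 to 0.26, Podxl to 0.49, Ltbr to 0.75, Emcn to 0.47 and the adipocyte gene Retn to 0.23. Totals without the 20 most abundant genes, chosen after the data were seen, gave 18 higher and 1 lower of the 28, Cd79b being the one added, with 37.2% of all genes higher. Leaving out 1 library at a time, 14 to 16 of the 28 genes were higher and 0 to 1 lower, Bcl6 being lost without control 1 or K5-RANKL 3. The number of genes higher in K5-RANKL then ran from 4444 to 4764, and of genes lower in K5-RANKL from 4144 to 4466. Near 0, the sign depended on the library left out: Fcer2a ran from -0.0405 to 0.106, Blk from -0.0744 to 0.166 and the log2 fold change of Fabp4, an adipocyte gene, from -0.0918 to 0.342. DESeq2 called 14 of the 28 higher, without Pou2f2, Cd38 and Madcam1. Madcam1 was not tested with at least 50 counts required in 3 libraries, and 16 were then higher. RLE factors, limma-voom and no filter on low counts changed no call among the 28. Depth limits Madcam1 and Chst4, with 6 to 14 counts in each control library.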
